A study of Zea mays with 12 samples.

Results

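The z1C1 genes of maize encode the 22-kDa alpha-zeins, and 10 gene models of this group were followed copy by copy among the 39448 models of the table. They were taken as a fixed list of identifiers, and the reference table gives each of the 10 a single z1C1 name. All 10 passed the filter on low values (FPKM of at least 1 in at least 3 of 12 libraries). RNA came from endosperm, the storage tissue of the kernel, collected 16 days after pollination. The libraries were 3 biological replicates of each of 4 genotypes: PbfRNAi;o2, a line with both lesions, called the double genotype below; o2, the opaque2 mutant; PbfRNAi, a line carrying an RNA interference construct against the gene of the prolamin-box binding factor; and wild type (WT). The sources used here do not give the o2 allele, the promoter of the construct, the number of ears pooled or the inbred background of each line, so a lesion and the background of the line that carries it cannot be told apart.

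Zeins are the prolamin storage proteins of maize. Alpha-zeins are made in the starchy endosperm and fill the core of protein bodies inside the endoplasmic reticulum. The transcription factors O2, a bZIP protein, and PBF, a Dof protein, are known activators of zein genes, and the 22-kDa alpha-zein genes are the best known O2 targets. The z1C1 copies form a tandem array on chromosome 4. In the reference assembly the segment from z1C1_11 to z1C1_19 holds 15 annotated genes, of which 13 carry a z1C1 name. The order of the 10 models is z1C1_11 (GRMZM2G088273), z1C1_12 (GRMZM2G088365), z1C1_1 (GRMZM2G088441), z1C1_2 (GRMZM2G388461), z1C1_4 (GRMZM2G044625), z1C1_5 (GRMZM2G045387), z1C1_6 (GRMZM2G346895), z1C1_7 (GRMZM2G346897), z1C1_8 (GRMZM2G044152) and z1C1_19 (GRMZM2G160739). RefSeq annotates 5 of them as protein coding (z1C1_12, z1C1_4, z1C1_7, z1C1_8 and z1C1_19) and 5 as transcribed pseudogenes (z1C1_11, z1C1_1, z1C1_2, z1C1_5 and z1C1_6). Names and order come from Zm-B73-REFERENCE-NAM-5.0, while the FPKM values rest on B73 RefGen_v3, so no coordinates are given. Of the 13 named genes 3 are not among the 10 models and are not analysed here.

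Levels are in FPKM, the number of fragments divided by transcript length and by the mapped fragments of the library, and can therefore be set side by side between models. Library sums ran from 430405 to 519817 FPKM, and the read depth is unknown. Reads of near-identical copies can be shared between models, so the level of a single copy is uncertain, while the sum over the copies is less so. In bulk tissue fewer cells of a type and less RNA per cell cannot be told apart. Replicate 1 stood apart from replicates 2 and 3 in each genotype (r across genes of 0.955 to 0.970, against 0.989 to 0.995 between replicates 2 and 3). In the 10 models the median log2 difference of replicate 1 from the other two replicates was −1.57 in the double genotype, 0.86 in o2, −0.32 in PbfRNAi and −0.88 in WT, against −0.13 to 0.12 over all tested genes. Summed FPKM of the 6 starchy endosperm marker models, of which 5 reached FPKM 1, ran from 7306 to 9406 in the double genotype, from 6829 to 12455 in o2, from 4671 to 6809 in PbfRNAi and from 3975 to 5648 in WT. For the 6 basal transfer layer models the sums were 93.7 to 274 in the double genotype, 286 to 537 in o2, 54.1 to 162 in PbfRNAi and 188 to 266 in WT. The embryo marker lec1 was listed at 0 throughout, while ole1 stood at 305 to 551, and the 3 models of the embryo surrounding region summed to at most 4.44. The 2 aleurone models summed to at most 0.0794, with c1 listed at 0 throughout. The part of these markers in the results was not tested.

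The o2 transcript was near 0 in both genotypes that carry the o2 lesion. The model GRMZM2G015534 stood at 0.804, 0.312 and 0.270 in the double genotype, at 0.677, 0.165 and 0.560 in o2, at 97.3, 128 and 133 in PbfRNAi and at 230, 195 and 189 in WT. The PbfRNAi line held less o2 transcript than WT (log2 fold change −0.78 ± 0.18, SE; limma adjusted p = 0.0087). Of 2 models named pbf1, GRMZM2G146283 stood at 64.8, 58.7 and 54.9 in the double genotype, 242, 307 and 331 in o2, 56.7, 44.1 and 39.1 in PbfRNAi and 110.3, 102 and 97.6 in WT. It was lowered in PbfRNAi (−1.15 ± 0.15, adjusted p = 0.00017) and not removed, and it was highest in o2. The other, GRMZM2G146267, stood at 15.2, 15.2 and 13.2 in the double genotype, 16.7, 20.05 and 18.5 in o2, 10.5, 13.9 and 11.7 in PbfRNAi and 12.6, 12.3 and 11.5 in WT, and was not called in PbfRNAi (−0.02 ± 0.12, adjusted p = 0.94). Both identifiers are listed under the same pair of neighbouring reference genes, of which 1 is pbf1, so the check of the RNAi target rests on the first model alone and is not settled by the names.

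The sum of the 10 models was highest in WT and lowest in the double genotype. It stood at 18.6, 277 and 245 FPKM in the double genotype, at 3374.5, 1069 and 988 in o2, at 15359, 20282 and 19262 in PbfRNAi and at 18103, 36442 and 31526 in WT. The double genotype, o2 and PbfRNAi did not overlap in this order, while WT replicate 1 lay within the PbfRNAi range. As a share of the FPKM of a library the sum was 0.0355% ± 0.0276 (SD, n = 3) in the double genotype, 0.369% ± 0.275 in o2, 3.58% ± 0.470 in PbfRNAi and 6.49% ± 2.35 in WT. The mean of the sum in o2 was 0.0631 of that in WT, or 0.0358 without o2 replicate 1, the highest o2 library. In PbfRNAi the ratio was 0.638, and the double genotype held 0.00628 of the WT sum. Against o2 the double genotype held 0.0996, or 0.175 without o2 replicate 1 and 0.254 without the 4 replicate 1 libraries. The single ratios multiply to 0.0403, and the observed 0.00628 is 0.156 of that product. Without o2 replicate 1 it is 0.275 of the product, and without the 4 replicate 1 libraries 0.436.

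**Figure D1:**
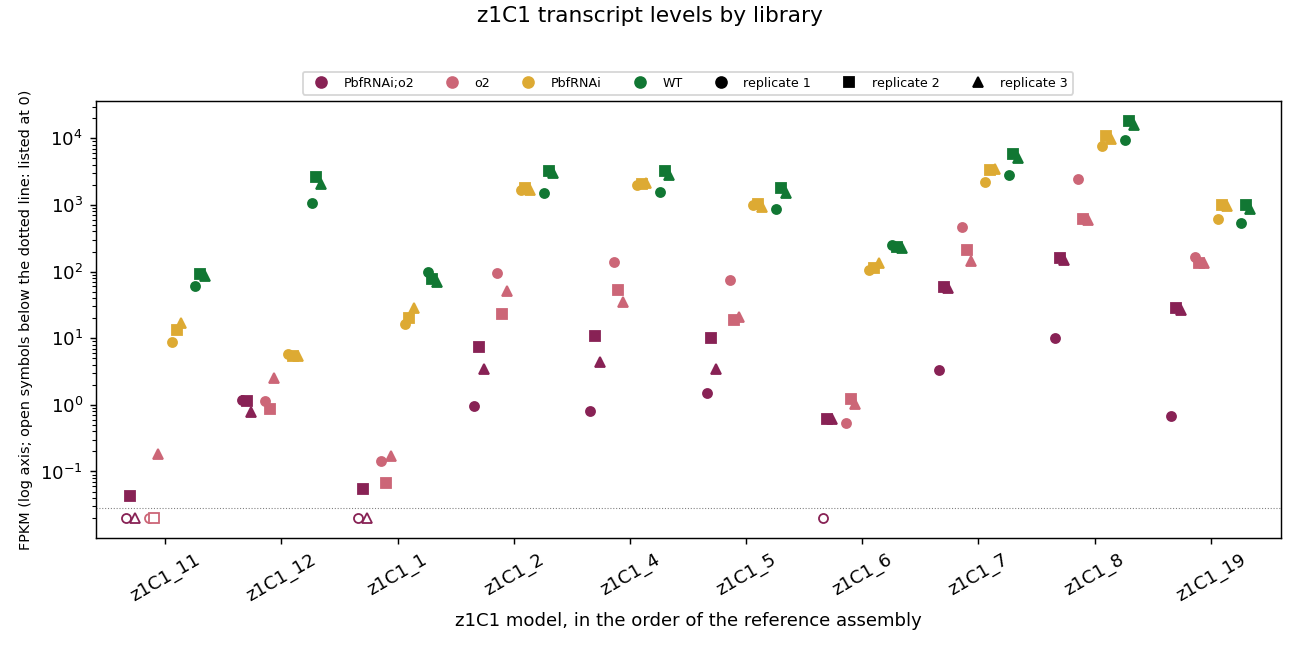
FPKM (log axis) of the 10 z1C1 models in each of 12 libraries, in the order of the models in the reference assembly, with symbols for replicates and colours for genotypes; open symbols under the dotted line are values listed at 0. The models ran from 70.4 to 18327 in the WT libraries, and the double genotype lay below PbfRNAi and WT for every model.

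In WT the copies spanned more than 2 orders of magnitude. The most abundant was z1C1_8, a coding copy, at 9362, 18327 and 15745 FPKM, followed by z1C1_7, also coding, at 2771, 5893 and 5141. A middle group held z1C1_2 (1493, 3180 and 3022), z1C1_4 (1579, 3205 and 2773), z1C1_12 (1075, 2644 and 2062), z1C1_5 (884, 1795 and 1528) and z1C1_19 (532, 998 and 869). The ranges of these 5 over the WT libraries overlapped with those of their neighbours in the order of levels. Within each WT library z1C1_12 lay above z1C1_5, and z1C1_5 above z1C1_19. Only z1C1_2 and z1C1_4 changed places between libraries. Well below stood z1C1_6 (248, 230.3 and 228), then z1C1_11 (61.2, 93.0 and 87.3) and z1C1_1 (98.7, 76.1 and 70.4), the last 2 overlapping each other. Models annotated as pseudogenes stood both in the middle group and in the 3 lowest places. In the middle group z1C1_2 changed places with the coding copy z1C1_4, and z1C1_5 lay between the coding copies z1C1_12 and z1C1_19. The 7 most abundant copies were lower in WT replicate 1 than in replicates 2 and 3.

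Every copy was lower in o2 than in WT, by very different amounts. Adjusted over all 17058 tested genes, 10 of 10 models fell in o2 against WT (limma adjusted p = 8.9e-10 to 0.045), and no model overlapped between the groups. Across all tested genes 2.63% were called lower, and 4.39% had all o2 libraries below all WT libraries. The median log2 fold change of the 10 models was −5.51, against 0.41 for all tested genes. Another 48.6% of all tested genes were called higher. Median-of-ratios scaling moved the comparison by 0.54 on the log2 scale, after which 10 of 10 models and 8.61% of all tested genes were called lower.

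On the log2(FPKM + 1) scale the coding copy z1C1_12 had the largest difference between o2 and WT. It stood at 1.16, 0.872 and 2.54 in o2, against 1075, 2644 and 2062 in WT (log2 fold change −9.54 ± 0.30, adjusted p = 2.5e-09). The o2 libraries thus held 0.000792 of the WT mean, or 0.000527 without o2 replicate 3. The 2 neighbours of z1C1_12 in the list, both annotated as pseudogenes, were near the floor of the measurement. z1C1_11 was listed at 0, 0 and 0.181 in o2, and z1C1_1 stood at 0.142, 0.0679 and 0.172. The log2 fold changes of z1C1_11 (−6.25 ± 0.21) and z1C1_1 (−6.18 ± 0.18) are on the log2(FPKM + 1) scale, which leaves little room below values this low. z1C1_6 behaved likewise, with 0.534, 1.20 and 1.01 in o2, against 248, 230.3 and 228 in WT (−6.96 ± 0.19, adjusted p = 5.8e-10).

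Of the middle group, z1C1_2, z1C1_4 and z1C1_5 kept a few percent of their WT level in o2. z1C1_2 stood at 96.2, 22.8 and 51.6 in o2, against 1493, 3180 and 3022 in WT (−5.62 ± 0.56, adjusted p = 7.3e-05). z1C1_4 had 138, 53.5 and 34.9 in o2, against 1579, 3205 and 2773 in WT (−5.22 ± 0.63), and z1C1_5 had 73.8, 18.8 and 21.1, against 884, 1795 and 1528 (−5.40 ± 0.57). Relative to the WT mean, o2 held 0.0222 for z1C1_2, 0.0300 for z1C1_4 and 0.0270 for z1C1_5.

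The abundant copies and z1C1_19 kept the most. z1C1_8 stood at 2425, 623 and 597 in o2, against 9362, 18327 and 15745 in WT, a ratio of means of 0.0839 (log2 fold change −3.85 ± 0.91, adjusted p = 0.0058). z1C1_7 stood at 474, 212 and 145 in o2, against 2771, 5893 and 5141 in WT, a ratio of 0.0603 (−4.16 ± 0.88, adjusted p = 0.0034). In both copies, and in z1C1_2, z1C1_4 and z1C1_5, o2 replicate 1 was the highest o2 library, and without it the ratio was 0.0421 for z1C1_8, 0.0389 for z1C1_7, 0.0145 for z1C1_2, 0.0175 for z1C1_4 and 0.0142 for z1C1_5. z1C1_19 had even values of 165, 136 and 134 in o2, against 532, 998 and 869 in WT, a ratio of 0.182 (−2.41 ± 0.89, adjusted p = 0.045). The call of z1C1_19 was lost, at adjusted p of 0.057 to 0.15, in 11 of 24 alternative settings, which include leaving out any 1 of the o2, PbfRNAi or WT libraries. Without the 4 replicate 1 libraries its adjusted p was 9.1e-08, in a setting where the calls among all tested genes rose from 8730 to 12599.

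In PbfRNAi some copies were called lower and others were not, which is not a split by the size of the difference alone. z1C1_6 was called at a ratio of means of 0.501 (SE of the log2 fold change 0.19). z1C1_8 (0.655, SE 0.91) and z1C1_7 (0.656, SE 0.88) were not called. Adjusted over all tested genes, 4 of 10 models fell against WT, and these 4 did not overlap between the groups. Among all tested genes 5.16% were called lower, and 9.26% had all PbfRNAi libraries below all WT libraries. On the higher side were 18.2% of all tested genes and none of the 10 models. With median-of-ratios scaling 4 models and 9.57% of all tested genes were called lower. The median log2 fold change of the 10 models was −0.57, against 0.16 for all tested genes. The 3 models at one end of the array, z1C1_11, z1C1_12 and z1C1_1, were among the 4, and z1C1_6 was the fourth.

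Of these 4, z1C1_12 fell furthest. It stood at 5.70, 5.39 and 5.34 in PbfRNAi, against 1075, 2644 and 2062 in WT, a ratio of means of 0.00284 (log2 fold change −8.12 ± 0.30, adjusted p = 6.9e-09). The pseudogene models next to it in the list fell less. z1C1_11 stood at 8.84, 13.3 and 16.8 in PbfRNAi, against 61.2, 93.0 and 87.3 in WT, a ratio of 0.161 (−2.56 ± 0.21, adjusted p = 3.1e-06). z1C1_1 stood at 16.4, 20.1 and 28.7, against 98.7, 76.1 and 70.4 in WT, a ratio of 0.266 (−1.88 ± 0.18, adjusted p = 1.2e-05). z1C1_6 stood at 106, 111 and 136, against 248, 230.3 and 228 in WT, a ratio of 0.501 (log2 fold change −0.999 ± 0.192, adjusted p = 0.0026), a call that a pseudocount of 0.1 removed (adjusted p = 0.28).

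The other 6 copies did not pass in PbfRNAi. The comparisons with WT share the 3 WT libraries. z1C1_8 stood at 7711, 10821 and 9928 in PbfRNAi, against 9362, 18327 and 15745 in WT. Its log2 fold change was −0.57, with a 95% interval from −2.58 to 1.45, which spans both directions. z1C1_7 had a like value (−0.56, interval −2.51 to 1.39). Without the 4 replicate 1 libraries both passed, z1C1_8 at −0.71 (adjusted p = 0.00051) and z1C1_7 at −0.69 (adjusted p = 0.0065). This brought the count to 6 of 10, while the calls among all tested genes, lower or higher, rose from 3978 to 8343. z1C1_2 (1654, 1809 and 1669 in PbfRNAi), z1C1_4 (2006, 2099 and 2125) and z1C1_5 (997, 1046 and 928) lay inside the WT ranges, at log2 fold changes of −0.51, −0.22 and −0.44. z1C1_19 stood at 618, 997 and 970.5 in PbfRNAi, against 532, 998 and 869 in WT (0.13 ± 0.89). The direction of this last difference turned with every scaling of the libraries (−0.09 with median-of-ratios scaling).

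**Figure D2:**
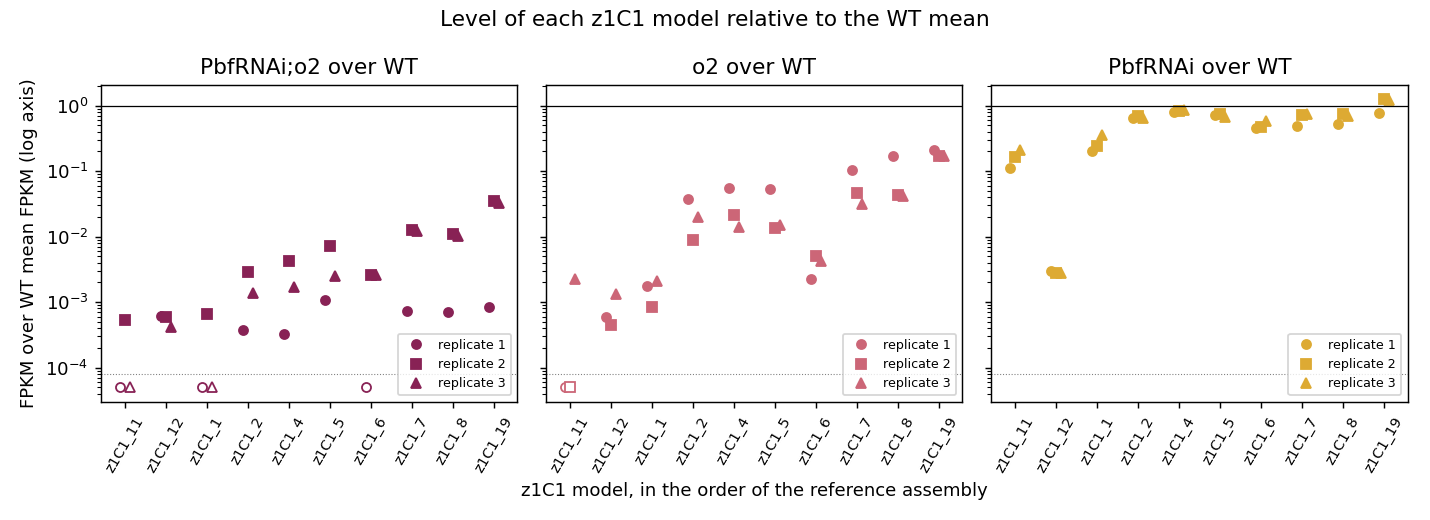
FPKM of each library divided by the WT mean of the same model (log axis), for the double genotype, o2 and PbfRNAi; symbols are replicates, the line at 1 is the WT mean, and open symbols under the dotted line are values listed at 0. In o2 the mean ratio was 0.000792 for z1C1_12 and 0.182 for z1C1_19, and in PbfRNAi the lowest was that of z1C1_12, at 0.00284.

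The ratios to WT followed the order of the copies along the array in o2 and the double genotype, and less so in PbfRNAi. From z1C1_2 to z1C1_8 the PbfRNAi ratios did not rise, at 0.667, 0.824, 0.706, 0.501, 0.656 and 0.655. In o2 the ratio of means rose from the z1C1_11 end to the z1C1_19 end, with z1C1_6 (0.00390) as the copy that broke the order most. Spearman's rho between array order and the ratio was 0.915 over the 10 models, and 0.879 to 0.915 with any 1 library left out. In the double genotype it was 0.94 (0.90 to 0.95), and in PbfRNAi 0.64 (0.64 to 0.81). These are descriptions over copies that share libraries, the WT mean and possibly reads, with values listed at 0 counted as 0, and no test was made. The WT level itself was also higher toward the z1C1_19 end (rho 0.44), and rho between WT level and ratio was 0.60 in o2, 0.55 in the double genotype and 0.32 in PbfRNAi.

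With both lesions every copy was far below WT. In the double genotype 10 of 10 models fell against WT (limma adjusted p = 2.0e-10 to 0.00026), where 4.75% of all tested genes were called lower and 55.4% higher. None of the 10 overlapped between the groups, which held for 5.84% of all tested genes on the lower side. The median log2 fold change of the 10 was −7.61, against 0.48 for all tested genes, and with median-of-ratios scaling 10 models and 17.2% of all tested genes were called lower. The o2 lesion within the PbfRNAi line gave a like count: against PbfRNAi 10 of 10 fell in the double genotype, where 6% of all tested genes were called lower and 38.9% higher. None overlapped there either, which held for 7.9% of all tested genes on the lower side. With median-of-ratios scaling it was 10 models and 14% of all tested genes. z1C1_8 stood at 10.1, 160.3 and 150.2 in the double genotype, against 7711, 10821 and 9928 in PbfRNAi, a ratio of 0.0113 (log2 fold change −7.18 ± 0.91, adjusted p = 0.00018). z1C1_7 stood at 3.37, 58.2 and 56.2, against 2236, 3361 and 3455 in PbfRNAi, a ratio of 0.0130 (−6.92 ± 0.88, adjusted p = 0.00020). The smallest of the 10 differences was that of z1C1_12, already at 5.70, 5.39 and 5.34 in PbfRNAi, which stood at 1.19, 1.13 and 0.794 in the double genotype (−1.67 ± 0.30, adjusted p = 0.0010). With a pseudocount of 10 it did not pass (adjusted p = 0.12).

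The comparison of the double genotype with o2 asks what the RNAi construct does where O2 is mutant. Against o2, 6 of 10 models fell in the double genotype, where 7.84% of all tested genes were called lower and 14.4% higher. The median log2 fold change of the 10 was −3.00, against 0.05 for all tested genes. With median-of-ratios scaling it was again 6 models, and 10.5% of all tested genes. No overlap between the groups was seen for 7 models, the 6 and z1C1_1, and for 13.9% of all tested genes on the lower side. The 6 were z1C1_2, z1C1_4, z1C1_5, z1C1_7, z1C1_8 and z1C1_19, none of which passed in PbfRNAi against WT in the fit to all libraries. z1C1_4 stood at 0.808, 10.8 and 4.33 in the double genotype, against 138, 53.5 and 34.9 in o2 (log2 fold change −3.74 ± 0.63, adjusted p = 0.0015). z1C1_2 stood at 0.953, 7.37 and 3.49, against 96.2, 22.8 and 51.6 in o2 (−3.57 ± 0.56, adjusted p = 0.0010). For z1C1_5 the values were 1.51, 10.1 and 3.51 in the double genotype and 73.8, 18.8 and 21.1 in o2 (−2.67 ± 0.57, adjusted p = 0.0066). The ratio to the o2 mean was 0.0702 for z1C1_4, 0.0692 for z1C1_2 and 0.133 for z1C1_5. Without double genotype replicate 2 the ratio became 0.0340 for z1C1_4, 0.0390 for z1C1_2 and 0.0662 for z1C1_5, and without o2 replicate 1 it became 0.1201 for z1C1_4, 0.106 for z1C1_2 and 0.253 for z1C1_5.

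The abundant coding copies moved in the same direction. z1C1_8 had 10.1, 160.3 and 150.2 in the double genotype, against 2425, 623 and 597 in o2 (log2 fold change −3.90 ± 0.91, adjusted p = 0.011), a mean ratio of 0.0880, or 0.175 with o2 replicate 1 left out. z1C1_7 had 3.37, 58.2 and 56.2, against 474, 212 and 145 in o2 (−3.32 ± 0.88, adjusted p = 0.021). z1C1_19 had 0.682, 28.1 and 26.3, against 165, 136 and 134 in o2 (−3.72 ± 0.89, adjusted p = 0.014). Replicate 1 of the double genotype was far below replicates 2 and 3 in each of these 3 copies, while replicate 1 of o2 was the highest o2 library. Without the 4 replicate 1 libraries the differences were smaller and still passed (adjusted p = 2.6e-07 to 6.1e-05). They were −1.97 for z1C1_8, −1.60 for z1C1_7 and −2.27 for z1C1_19. In that setting 8444 of all tested genes were called, lower or higher, against 3793 in the fit to all libraries. Passing there therefore sets a copy less apart from other genes. The calls of z1C1_7, z1C1_8 and z1C1_19 were lost when only the libraries of o2 and the double genotype were fitted (adjusted p = 0.069 to 0.090) and with no filter on low values (0.059 to 0.089), and that of z1C1_7 also without o2 replicate 2 (0.0504).

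The 4 copies called lower in PbfRNAi were not called between the double genotype and o2 in the main fit, which used a pseudocount of 1. z1C1_12 stood at 1.19, 1.13 and 0.794 in the double genotype, against 1.16, 0.872 and 2.54 in o2 (log2 fold change −0.26, interval −0.91 to 0.39). z1C1_11 was listed at 0, 0.0433 and 0 in the double genotype, and z1C1_1 at 0, 0.0545 and 0. The z1C1_1 libraries of the double genotype all lay below those of o2 (0.142, 0.0679 and 0.172), and with a pseudocount of 0.1 z1C1_1 was called lower (−0.95, adjusted p = 0.026). z1C1_6 was listed at 0, 0.608 and 0.605 in the double genotype, against 0.534, 1.20 and 1.01 in o2 (adjusted p = 0.11). It was called lower with the replicate block (adjusted p = 0.040, and 0.023 with median-of-ratios scaling as well). It also passed without o2 replicate 1 (0.048) and without the 4 replicate 1 libraries (0.0091). The latter setting had 8444 calls among all tested genes, against 3793 in the main fit. All 4 copies had at most 2.54 FPKM in any o2 library, where the log2(FPKM + 1) scale leaves little room for a further difference.

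**Figure D3:**
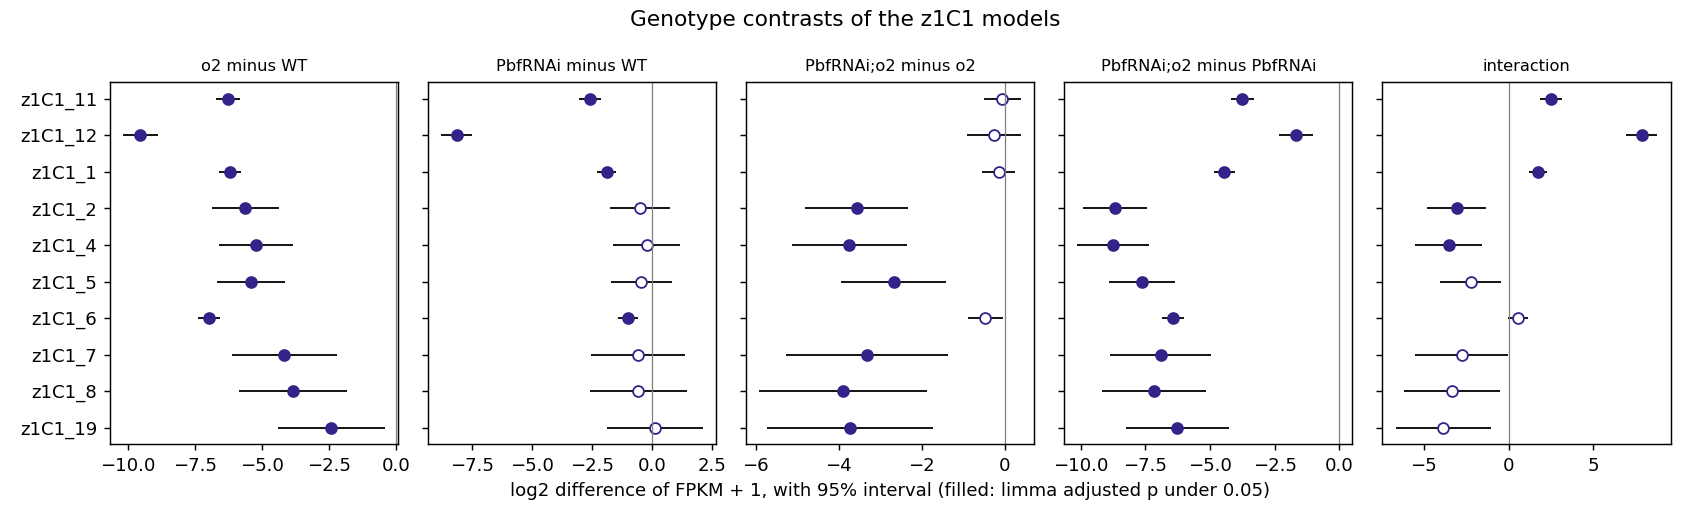
Log2 differences of FPKM + 1 for the 10 models (points, with 95% intervals from limma) in 4 genotype contrasts and the interaction, each panel with its own axis; filled points have an adjusted p under 0.05. The 6 models called between the double genotype and o2 have open points in the PbfRNAi against WT panel.

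The departure from the sum of the single effects was tested as the interaction, which is the difference between the double genotype and o2 minus the difference between PbfRNAi and WT, on the log2 scale. It was called for 5 models, 2 lower and 3 higher, where 5.49% of all tested genes were called lower and 3.83% higher. With median-of-ratios scaling 1 was called lower and 3 higher, against 4.58% lower and 5.2% higher of all tested genes. z1C1_4 (−3.53 ± 0.89, adjusted p = 0.031) and z1C1_2 (−3.06 ± 0.80, adjusted p = 0.036) were lower in the double genotype than the single effects add up to. Neither call held with the replicate block (adjusted p = 0.056 for z1C1_4 and 0.069 for z1C1_2), and with it the count was 3. The call of z1C1_4 was lost in 12 and that of z1C1_2 in 15 of 23 alternative settings (adjusted p up to 0.17), which include leaving out any 1 PbfRNAi or WT library or replicate 3 of the double genotype. z1C1_8 (−3.33 ± 1.29, adjusted p = 0.14), z1C1_7 (−2.76 ± 1.24, adjusted p = 0.21), z1C1_19 (−3.85 ± 1.26, adjusted p = 0.091) and z1C1_5 (−2.23 ± 0.81, adjusted p = 0.12) had values of the same sign and did not pass. As ratios of means, z1C1_8 stood in the double genotype at 0.00738 of WT, while the single ratios multiply to 0.0550, or to 0.0276 without o2 replicate 1. Without the 4 replicate 1 libraries z1C1_8 stood at 0.00911 of WT and the product was 0.0218.

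Without the 4 replicate 1 libraries the interaction was called for 8 models, 4 on the lower side and 4 on the higher. The lower ones were z1C1_8 (−1.25, adjusted p = 0.00025), z1C1_7 (−0.91, adjusted p = 0.011), z1C1_19 (−2.35, adjusted p = 4.0e-06) and z1C1_4 (−1.98, adjusted p = 0.021). In that setting 7621 of all tested genes were called, lower or higher, against 1590 in the fit to all libraries. A call there therefore sets a model less apart from other genes. The calls on the higher side in the fit to all libraries were z1C1_12 (7.86 ± 0.42, adjusted p = 3.9e-07), z1C1_11 (2.50 ± 0.29, adjusted p = 0.00016) and z1C1_1 (1.74 ± 0.26, adjusted p = 0.00092). All 3 had at most 2.54 FPKM in any o2 library. With a pseudocount of 0.1 the value of z1C1_1 became 0.98 (adjusted p = 0.14).

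The make-up of the z1C1 transcript pool differed between genotypes, as described here without a test. In every library z1C1_8 was the largest part, at 57.8% ± 3.43 (SD, n = 3) of the sum in the double genotype, 63.5% ± 7.31 in o2, 51.7% ± 1.58 in PbfRNAi and 50.7% ± 0.940 in WT. These shares do not depend on the scaling of the libraries. z1C1_12 made up 0.0305% ± 0.00579 of the sum in PbfRNAi, against 6.58% ± 0.659 in WT, and 0.0344% to 0.258% in o2. z1C1_19 held a larger share, with 4.90% to 13.6% in o2 and 4.03% to 5.04% in PbfRNAi, against 2.74% to 2.94% in WT, with no overlap of either genotype with WT. The 5 models annotated as pseudogenes together held 3.10% to 13.2% in the double genotype, 4.01% to 7.50% in o2, 14.4% to 18.1% in PbfRNAi and 14.8% to 15.7% in WT. In o2 the pool thus consisted more of coding copies than in WT in each library, while PbfRNAi overlapped WT. In replicate 1 of the double genotype the sum was only 18.6 FPKM, and z1C1_12 with 1.19 FPKM made up 6.39% of it.

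**Figure D4:**
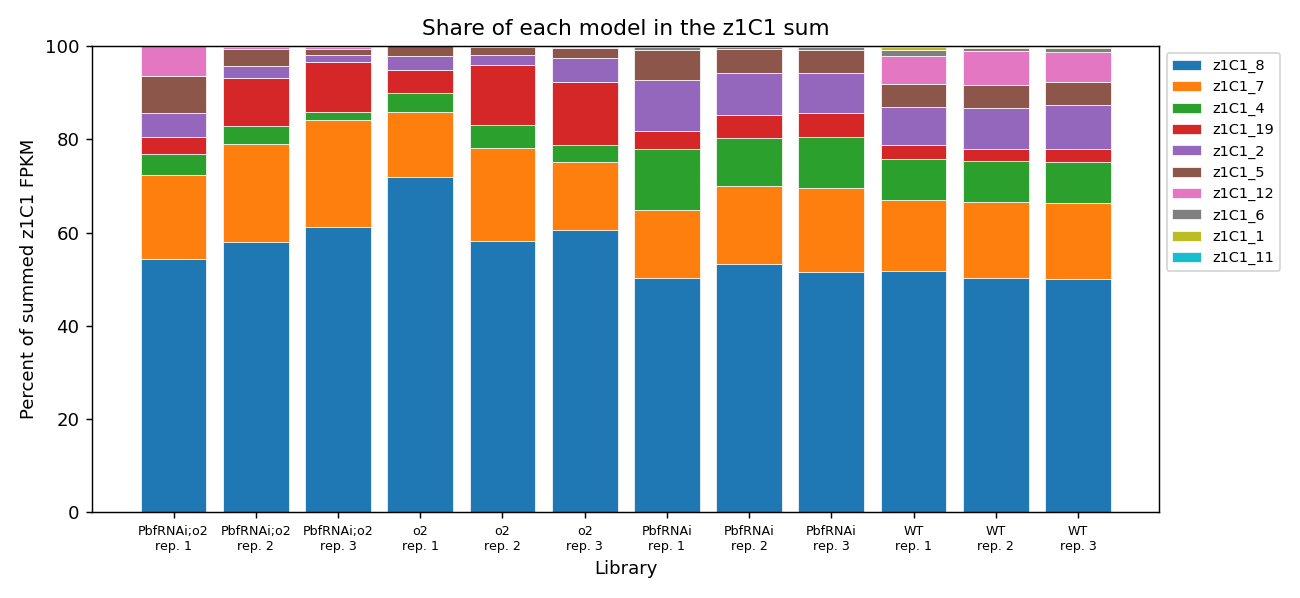
Share of each of the 10 models in the summed z1C1 FPKM of each library, in percent, as stacked bars. z1C1_8 holds 49.9% to 71.9% in all libraries, the z1C1_12 segment is visible in WT (5.94% to 7.26%) and not in PbfRNAi, and the z1C1_19 segment is wider in o2 than in WT.

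Copies also differed in how they moved together over the 12 libraries. Pearson's r of log2(FPKM + 1) between models ran from 0.554 to 0.997 over 45 pairs, with a median of 0.91, as a description over libraries that share genotype. With the log2 sum of the group z1C1_8 (0.999), z1C1_7 (0.999), z1C1_4 (0.986), z1C1_19 (0.982), z1C1_2 (0.978) and z1C1_5 (0.973) went closely, z1C1_6 (0.891), z1C1_1 (0.858) and z1C1_11 (0.837) less, and z1C1_12 (0.655) least. Of 7571 candidate genes with a mean of at least 10 FPKM in a genotype, the 5 most like the sum outside the models named as zeins were AF546187.1_FG007 (0.983), LOC100274142 (GRMZM2G046520, 0.970), GRMZM2G124353 (0.957), scl1 (GRMZM2G023872, 0.939) and LOC100382859 (GRMZM2G035314, 0.926). AF546187.1_FG007 stood at 20.5, 411 and 334 FPKM in the double genotype and at 4699, 1218 and 1402 in o2. Its levels were 6514, 10134 and 9396 in PbfRNAi and 5926, 14409 and 12044.5 in WT, in the range of the abundant z1C1 copies. The reference table gave this model no name, so whether it is a further zein copy was not tested. The z1C1 sum covers the 10 models only. LOC100274142 stood at 0.981, 19.4 and 19.9 FPKM in the double genotype, at 38.0, 36.0 and 34.2 in o2, at 133, 286 and 303 in PbfRNAi and at 104, 264 and 269 in WT.

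Among 16 other zein models, 15 were tested. Against WT 9 of the 15 fell in the double genotype, 5 in o2 and 2 in PbfRNAi, beside 4.75%, 2.63% and 5.16% of all tested genes. Called higher against WT were 55.4%, 48.6% and 18.2% of all tested genes. In the double genotype against o2 1 of the 15 was called lower and 1 higher, beside 7.84% of all tested genes called lower and 14.4% higher. The higher calls against WT were z1A2_1 in the double genotype (2.95 ± 0.41) and in PbfRNAi (4.49 ± 0.41), and gz27 in all 3 genotypes. gz27 (GRMZM2G138727), a gamma-zein, was listed at 0 in the 3 WT libraries, so its calls are not counted as rises. Against WT the median log2 fold change of the 15 was −1.28 in the double genotype, −0.52 in o2 and −0.05 in PbfRNAi, beside −7.61, −5.51 and −0.57 for the 10 z1C1 models, with no test of the difference. These medians include gz27, z1C2, z1A1_3/z1A1_4 and z1A2_2, listed at 0 in at least 1 WT library. Their fold changes against WT were all positive, which raises the medians and widens the distance from the z1C1 models. Another 22-kDa alpha-zein gene, z1C2 (GRMZM2G397687), stood at 22.2, 125 and 112 in the double genotype, at 1306, 851 and 826 in o2 and at 6062, 8577 and 7726 in PbfRNAi, and was listed in WT at 27678, 0 and 0, so that no fold against WT is given. Between the double genotype and o2 the 1 zein of the list called lower was gz50, a gamma-zein (log2 fold change −4.61 ± 0.38, adjusted p = 4.6e-06), and z1A2_1, an alpha-zein of another subfamily, was called higher (4.82 ± 0.41, adjusted p = 5.4e-06). z1C2 was not called there (−3.81 ± 3.36, adjusted p = 0.48), and its spread in this fit includes the WT libraries listed at 0. Its double genotype libraries all lay below those of o2, at a ratio of means of 0.0870. No overlap on the lower side was seen for 3 of the 15, beside 13.9% of all tested genes, and on the higher side for 1.

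Of 8 models in the list of zein regulators, o2 and pbf1 included, 3 were called lower in the double genotype, 2 in o2 and 2 in PbfRNAi against WT, beside 4.75%, 2.63% and 5.16% of all tested genes. Called higher were 2 in the double genotype, 4 in o2 and 1 in PbfRNAi, beside 55.4%, 48.6% and 18.2% of all tested genes, and with median-of-ratios scaling 1 of the 4 in o2 remained. The call in PbfRNAi and 1 of the 2 in the double genotype are ohp1, listed at 0 in WT. Among them nkd2 (GRMZM5G884137), which encodes a zinc finger factor of endosperm differentiation, fell in o2 (15.1, 13.4 and 14.5, against 29.6, 35.0 and 31.9 in WT; log2 fold change −1.11 ± 0.18, adjusted p = 0.00058). Its paralog nkd1 (GRMZM2G129261) stood at 104, 121 and 126 in o2, against 58.2, 49.96 and 49.8 in WT (1.14 ± 0.20, adjusted p = 0.00087), and after scaling by median of ratios it did not pass (adjusted p = 0.071). The bZIP gene ohp2 (GRMZM2G007063), a relative of o2, stood at 7.11, 6.86 and 6.42 in o2, against 4.66, 3.40 and 3.56 in WT (0.69 ± 0.15, adjusted p = 0.0033; scaled 0.24, adjusted p = 0.27). Its homolog ohp1 (GRMZM2G016150) was listed at 0, 10.9 and 10.6 in the double genotype, at 0, 0.0309 and 0.0240 in o2, at 2.96, 9.72 and 9.43 in PbfRNAi and at 0 in the 3 WT libraries.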

How the data were processed

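RNA of 12 endosperm libraries was sequenced, 3 for each of 4 genotypes. Per the labels' protocols, ribosomal RNA was removed and paired reads of 125 nt were produced. FastQC, TopHat, Bowtie2, Cufflinks and the build B73 RefGen_v3 are named, per the submitters' processing notes. The sources used here give no versions, no parameters and no rule for reads that match several copies. A single deposited table by the authors gives FPKM for 39448 models. FPKM carries no depth. Between replicates 2 and 3, low values (FPKM up to 0.5) stood in whole-number ratios, with a tolerance of 0.02 on the log2 scale, for only 25.4% to 42.9% of the genes compared. Whole reads could thus not be recovered and no counting interval is given. A 0 occurred beside a value of 20 or more in 35 models and can be a failed estimate, so members with a 0 are given by library.

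limma 3.58.1 (R 4.3.3) was run on log2(FPKM + 1) for the 17058 genes that reached FPKM 1 in 3 or more libraries, with 4 genotype means, a variance trend and robust estimation. Fold changes on this scale understate those of low genes. Tests were two-sided, with Benjamini-Hochberg adjustment over all tested genes and a threshold of 0.05, and every adjusted p is from this fit or a named alternative. The script was tested on simulated data. Alternatives were other pseudocounts, filters, scalings and variance models, fits of only the genotypes compared, and libraries left out. Ratios are of genotype means of FPKM. Deviations from the genotype mean correlated between libraries with the same replicate number (r = 0.18 to 0.50 over 18 pairs of libraries). Replicate 1 stood apart in each genotype, and libraries with unlike numbers were not compared. The values therefore cannot show a pairing by number of replicates 2 and 3. The fit with the replicate number as a block is given where it changes a call. Named genes are all members, any other zein or listed regulator, and the 5 genes most like the z1C1 sum. Names came from a table of Zm-B73-REFERENCE-NAM-5.0, in which 18906 identifiers matched. Promoter and protein sequences were not used here. The members and lists were chosen with earlier results of these data known. Tables were handled with python 3.11.15, pandas 2.3.3, numpy 2.4.6 and scipy 1.17.1.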

Additional observations from a re-analysis of the deposited data

Results flagged for a closer look

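Interaction tests in limma, of whether the difference made by the PbfRNAi construct departs between the o2 and the O2 background, passed for 5 copies. In z1C1_12 (7.86), z1C1_11 (2.50) and z1C1_1 (1.74) the log2(FPKM + 1) difference between PbfRNAi and WT was larger than that between the double genotype and o2. These 3 copies stood at 2.54 FPKM or less in every library of the double genotype and o2, where that scale leaves little room, and with a pseudocount of 0.1 the value of z1C1_1 did not pass (0.98, adjusted p = 0.14). In z1C1_4 (−3.53) and z1C1_2 (−3.06) the estimated fall was larger between the double genotype and o2 than between PbfRNAi and WT. Neither passed with the replicate block (adjusted p = 0.056 for z1C1_4 and 0.069 for z1C1_2) or with any 1 PbfRNAi or WT library left out, and z1C1_4 was lost in 12 and z1C1_2 in 15 of 23 alternative settings.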

How the results depend on the processing

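The call counts were recomputed under 24 alternatives for each comparison between genotypes and 23 for the interaction, 1 of which, median-of-ratios scaling with the replicate block, was added after seeing the data. Counts stayed at 9 or 10 of 10 for PbfRNAi;o2 against WT or PbfRNAi and for o2 against WT, and ran from 3 to 6 for PbfRNAi against WT. Between PbfRNAi;o2 and o2 the 6 calls became 3 with no filter on low values and 3 with only these genotypes fitted. Interaction calls, 5 in the main setting, became 3 with a pseudocount of 0.1, with no filter or with the replicate block, 8 without all replicate 1 libraries, and 3 to 7 with 1 library left out; the cause was not tested. With 1 library left out the count was 10 for PbfRNAi;o2 against WT or PbfRNAi, 5 to 7 for PbfRNAi;o2 against o2, 9 to 10 for o2 against WT and 4 for PbfRNAi against WT. Leaving out all replicate 1 libraries raised the calls among all tested genes in every comparison, for the interaction from 1590 to 7621. The replicate block changed no other call than those named. Signs turned only for values with no call in the main fit: z1C1_19 in PbfRNAi (−0.0864 with median-of-ratios scaling, alone or with the replicate block, −0.0859 with that scaling outside the 100 most abundant genes, −0.10 scaled to genes that are not zeins, and −0.14 to 0.35 with 1 library left out, the lowest without WT replicate 1), z1C1_11 (−0.10 to 0.0204) and z1C1_12 (−0.45 to 0.0137) between PbfRNAi;o2 and o2 with 1 library left out, the highest without o2 replicate 3, and the interaction of z1C1_6 (−0.40 with a pseudocount of 0.1). The interaction of z1C1_6 was called higher in 4 of 23 alternatives, 1 of them a pseudocount of 10 (0.88, adjusted p = 0.0010). Its sign and call thus depended on the pseudocount. Scaled by median of ratios or to genes that are not zeins, the sum moved by less than 1 SD in each genotype. With 1 library left out the mean sum ran from 132 to 261 FPKM in PbfRNAi;o2, 1028 to 2222 in o2, 17311 to 19772 in PbfRNAi and 24814 to 33984 in WT. The share of z1C1_8 was recomputed only with 1 library left out (59.4% to 66.2% in o2). Leaving out 1 of 3 libraries cannot move a mean by 1 SD, so it is no check of stability. The planned motif search with its other window was not run. Unknown depth limits what can be said of copies under about 1 FPKM.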
